A study of Mus musculus with 4 samples.

Results

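Gene expression of 10 interferon-inducible GTPase genes was examined in naive helper T cells of mice labelled as lacking furin in T cells. The genes were Igtp, Irgm1, Irgm2, Iigp1 and Gm4951 of the immunity-related GTPases (IRG family) and Gbp2, Gbp3, Gbp6, Gbp7 and Gbp8 of the guanylate-binding proteins (GBP family). They were read with all 14 probe sets that the platform annotation maps to 1 of these symbols alone, 6 of IRG and 8 of GBP genes, out of 45037 probe sets for 18193 named genes. The 10 genes were picked because they differed between the genotypes on these arrays, so their differences between knockout and wild type are given as a description, with no test.

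The knockout mice carried CD4-cre with fur flox/flox, in which the CD4 promoter drives Cre in T cells, and the wild-type mice were littermates with fur flox/flox and no Cre. Both groups, aged 10 to 11 weeks, thus carry the floxed furin gene, which encodes a proprotein convertase. Cells were sorted fresh as CD4+ CD62L+ CD44-. Each group had 2 Affymetrix mouse arrays, and with 4 arrays in all precision is low. Whether the arrays of a genotype hold RNA of different mice is not given, so errors and p-values cover only the spread between these samples, which may be technical. Signals are MAS5 intensities, and differences are knockout minus wild type on the log2(signal + 15.3) scale, where 1 means 2-fold. This scale understates the change of dim probe sets.

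Both families belong to the large GTPases that cells make in response to interferon, above all interferon gamma. They defend cells against pathogens that live inside vacuoles: IRG proteins gather on the vacuole membrane and break it, and GBP proteins coat vacuoles or freed bacteria and help trigger inflammasomes. The Irgm proteins, among them Igtp (also called Irgm3), sit on the cell's own membranes and hold the effector IRG proteins in their inactive state until a foreign vacuole appears. In T cells, Irgm1 is known from mouse knockouts to protect activated CD4 T cells from death in the presence of interferon gamma. Interferon reaches these genes through promoter elements of 2 kinds, the interferon-stimulated response element (ISRE), bound by IRF factors and by the complex formed after type I interferon, and the gamma-activated site (GAS), bound by STAT dimers.

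The promoters of the members were read from RefSeq sequences of GRCm38.p6, which give 300 bases per start, 250 before it and 50 after. The table held 7 promoters of 6 of the 10 members, with 2 starts for Gbp3. They were searched for the ISRE-type word GAAANNGAAA on both strands and for the GAS-type word TTCNNNGAA, which is its own complement. The 120 bases before the start follow for these 6 genes, since each holds at least the ISRE-type word. Capitals mark the words, and an ISRE-type word on the opposite strand reads TTTCNNTTTC.
Igtp, chr11:58199436-58199555, plus strand: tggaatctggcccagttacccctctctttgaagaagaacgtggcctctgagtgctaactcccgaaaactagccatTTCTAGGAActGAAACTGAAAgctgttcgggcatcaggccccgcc
Irgm2, chr11:58214857-58214976, plus strand: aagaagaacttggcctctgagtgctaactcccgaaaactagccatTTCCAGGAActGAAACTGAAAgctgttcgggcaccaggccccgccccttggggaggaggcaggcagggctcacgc
Irgm1, chr11:48871421-48871540, minus strand: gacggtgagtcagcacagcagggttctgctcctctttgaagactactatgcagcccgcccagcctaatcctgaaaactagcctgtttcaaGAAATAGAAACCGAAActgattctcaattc
Gbp2, chr3:142620543-142620662, plus strand: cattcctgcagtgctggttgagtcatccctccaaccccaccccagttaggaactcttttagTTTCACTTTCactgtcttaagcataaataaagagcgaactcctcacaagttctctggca
Gbp3, chr3:142559924-142560043, plus strand: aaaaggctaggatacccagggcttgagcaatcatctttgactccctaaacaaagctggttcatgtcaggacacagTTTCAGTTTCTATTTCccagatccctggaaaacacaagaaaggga
Gbp7, chr3:142530216-142530335, plus strand: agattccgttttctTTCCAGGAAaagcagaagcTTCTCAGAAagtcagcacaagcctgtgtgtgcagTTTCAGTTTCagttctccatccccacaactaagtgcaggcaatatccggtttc

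All 6 genes had an ISRE-type word in these 120 bases, in 6 of their 7 promoters, whereas 1.22% of all 32851 promoters in the table have it in that window and 3.44% in the full 300 bases. The word began between -64 (Irgm2) and -30 (Irgm1) before the start, with Igtp at -34, Gbp3 at -45, Gbp7 at -53 and Gbp2 at -59. Irgm1 and Gbp3 held it in 2 overlapping copies, the second beginning at -24 in Irgm1 and at -39 in Gbp3. The second start of Gbp3 had neither word in its 300 bases. A GAS-type word stood in 3 of the 6 genes, against 8.30% of all promoters in 300 bases and 3.15% in the 120 bases before the start. Igtp and Irgm2, which neighbour each other on chromosome 11, had it 11 bases ahead of the ISRE-type word, and 20 of the 21 bases from the first word through the second were identical between them. Aligned on these words without gaps, their 300-base promoters shared 184 of 270 bases (68.1%). Up to the end of the ISRE-type word 111 of 196 bases were identical, so nearly all mismatches lay in that part. The printed stretches of these genes were nearly identical where they overlap in this alignment. Gbp7 had 2 GAS-type words, at -106 and -87. The words were not particular to the members. Of 11 other IRG and GBP genes with a promoter, 7 had the ISRE-type word in 300 bases and 4 in the 120 bases. The GAS-type word stood in 5 of these 11 in either window. Of 21 other interferon-induced genes, 8 had the ISRE-type word and 7 the GAS-type word in 300 bases. A word match is a description of the sequence and does not show that a factor binds there.

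**Figure D1:**
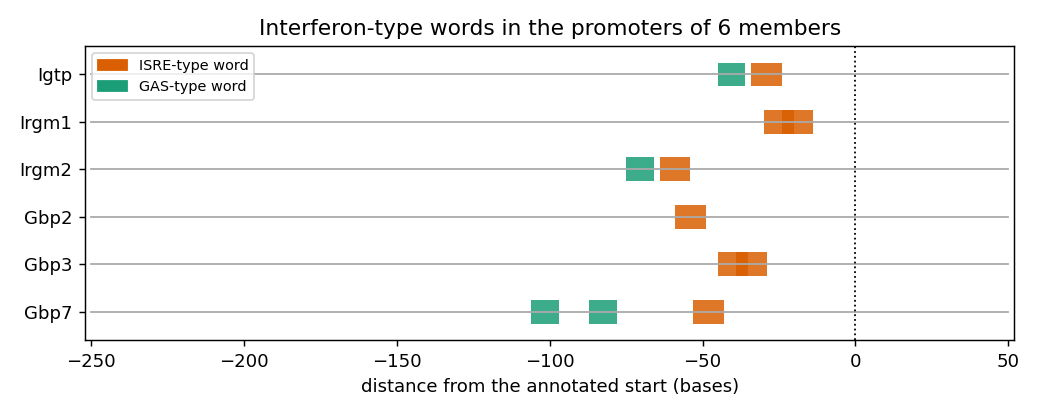
Positions of the ISRE-type word GAAANNGAAA (orange, either strand) and the GAS-type word TTCNNNGAA (green) in the promoters of 6 members, as distance in bases from the annotated start (dotted line). All 6 hold the ISRE-type word within 64 bases before the start, and Igtp and Irgm2 have both words at the same spacing of 11 bases; of the 2 Gbp3 starts, the one with words is drawn.

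The arrays fell by their number before they fell by genotype, and the values below are therefore given within arrays numbered 1 and within arrays numbered 2. Array number divided the arrays along the first principal component (78.7% of variance). Bacterial hybridisation controls, which are added and do not come from the cells, gave a ratio of array 2 over array 1 of 6.09 in knockout and 6.25 in wild type. What the number stands for is not stated in the labels. SEs of genotype differences come from a fit without array number, so the shift between numbers is included in them. Furin itself, read by 1 probe set, had signals of 391.4 and 446.9 on the knockout arrays and 435.1 and 343.9 on the wild-type arrays, a difference of 0.11 (SE 0.34). The deleted part of the gene is not named in the labels, so this probe set checks neither the deletion nor the labels. Of 10 listed T cell markers 9 were measured and all 9 passed the filter on low signals; Cd4 had 3032.1 and 3348.3 on the knockout arrays against 3432.4 and 2974.4 on the wild-type arrays.

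Markers of cells outside the sort were mostly higher in knockout cells as well, none of them called by limma, and IRG and GBP genes are inducible in B cells and myeloid cells as in T cells. In bulk samples, more cells of a type and more RNA per cell cannot be told apart. The summed signal of 10 measured B cell markers was 1586 and 16029 on the knockout arrays and 1069 and 4522 on the wild-type arrays, with 7 of 8 kept markers higher within both numbers (25.3% over all kept probe sets). That of 14 myeloid markers was 2430 and 15210 against 1675 and 4580, with 12 of 13 kept markers higher. The sum of 9 T cell markers was 66285 and 131624 against 64535 and 137311. None of these markers was listed at 0 on all arrays. The median difference of the kept B cell markers was 0.26 on the arrays numbered 1 and 1.55 on those numbered 2, and that of the kept myeloid markers 0.67 and 1.79. The sums of 5 dendritic cell markers, 193.7 and 252.4 against 155 and 212, came from probe sets that all failed the filter. For 7 CD8 T and NK cell markers the sums were 3257 and 3295 against 2647 and 2814, with 3 of 5 kept markers higher within both numbers. Of these, Gzma, a granule protease of cytotoxic cells, had 521.2 and 468.4 on the knockout arrays against 195.4 and 89.6 on the wild-type arrays. Nkg7 had 323.9 and 344.5 against 159.4 and 112.7. The groups of these 2 of 5 kept markers did not overlap (7.62% over all kept probe sets). The other kept markers were flat or mixed within numbers: Cd8b1 at 0.325 and 0.02, Klrd1 at 0.04 and -0.09, and Cd8a at 0.08 and -0.60. Ncr1 (-0.54 and -0.83) and Klrk1 (0.14 and 1.29) failed the filter. The sums were for 6 plasma cell markers 6279 and 6676 against 6216 and 3886, and for 3 erythroid markers 33 and 387.8 against 41.3 and 983.6. All 4 kept genes of the naive T cell list were lower in knockout cells within both numbers (30.1% over all kept probe sets), with a median of -0.28 and 0 called by limma. They were Ccr7 (-0.45 and -0.14), Il7r (-0.26 and -0.29) and Lef1 (-0.13 and -0.06), which mark the naive state, and Cd44 (-0.38 and -0.18), for whose absence the cells were sorted. The part of other cells in the levels of the GTPase genes was not tested.

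The Irgm regulators had both knockout arrays above both wild-type arrays. Igtp had signals of 16001.8 and 24782.5 on knockout arrays 1 and 2, against 10516.8 and 8680.8 on wild-type arrays 1 and 2. The gap was wider on the arrays numbered 2 (1.51) than on those numbered 1 (0.60), with a mean of 1.06 (SE 0.39). Irgm1 had 2934.5 and 2672.5 on the knockout arrays and 1789 and 1500 on the wild-type arrays, and its differences of 0.71 and 0.83 lay close together (mean 0.77, SE 0.33). Neither gene's groups overlapped.

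Irgm2 showed a second pattern laid over the genotype. Its signals were 6204.4 and 3638.6 on the knockout arrays and 3510 and 1679.6 on the wild-type arrays. Both arrays numbered 2 were dimmer than the array numbered 1 of the same genotype, and the dimmer knockout array stood only just above the brighter wild-type array. Within numbers it was higher by 0.82 and 1.11 (mean 0.96, SE 0.53), and the mean ranged from 0.44 without wild-type replicate 2 to 1.49 without wild-type replicate 1. With 1 array left out, genotype and array number are no longer balanced. Such values, here and for the members below, thus also hold the shift between numbers.

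The other IRG members, Iigp1 and Gm4951, stood further apart. This did not hold for effector IRG genes as a group, since Ifi47, an effector IRG outside the members, was at 0.39 and 0.70. Iigp1 (Irga6), which loads onto the vacuoles of Toxoplasma and helps to disrupt them, had 7402.5 and 9599.4 on the knockout arrays and 2035.4 and 1463.1 on the wild-type arrays with the probe set 1419043_a_at, differences of 1.85 and 2.70 (mean 2.28, SE 0.37). The probe set 1419042_at had 2695.7 and 4097.2 against 460.4 and 469.2, or 2.51 and 3.09 (mean 2.80, SE 0.37). The probe sets thus gave the same direction on each pair of arrays and differed by 0.52 in size.

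Gm4951 (Ifgga2), an IRG gene that neighbours Iigp1 on chromosome 18, differed most of all members. It had signals of 327 and 757.2 on the knockout arrays and 26.4 and 15.6 on the wild-type arrays, or 3.04 and 4.64 on the log2 scale (mean 3.84, SE 0.51). Both knockout signals lay far above both wild-type signals. It passed the filter through the knockout arrays alone, since its wild-type mean of 5.17 lay below the filter level of 6.24. The table has no detection calls, so whether the gene was above background in wild-type cells is not known, and the size of its difference depends on the added constant, ranging from 2.70 with 66.6 added to 4.55 with 1 added.

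**Figure D2:**
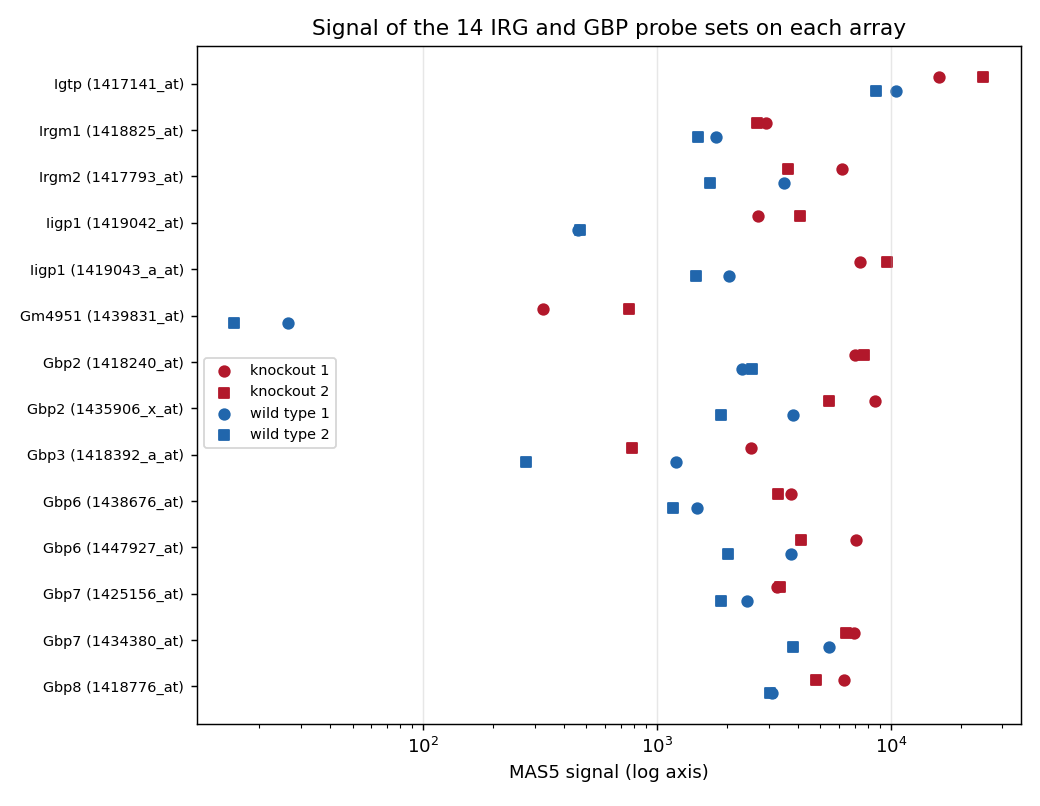
MAS5 signal (log axis) of each IRG and GBP probe set on the knockout arrays (red) and the wild-type arrays (blue), with circles for arrays numbered 1 and squares for arrays numbered 2. In 13 of 14 probe sets both red symbols lie right of both blue ones, Gbp3 being the exception. The share over all kept probe sets was 7.62%, and the members were picked on this contrast. Gm4951 is the one whose wild-type signals are near the bottom of the scale.

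Among the guanylate-binding proteins, Gbp2, which coats the Toxoplasma vacuole in mouse cells, was higher with both of its probe sets. The probe set 1418240_at had 7006.9 and 7706.4 on the knockout arrays against 2299.8 and 2550.1 on the wild-type arrays, a gap of nearly equal size in both numbers (1.60 and 1.59, mean 1.60, SE 0.32). The probe set 1435906_x_at, of a type whose probes may also bind other transcripts, had 8529.6 and 5414.6 against 3810.1 and 1879.7, or 1.16 and 1.52 (mean 1.34, SE 0.50). This mean was 0.83 without wild-type replicate 2 and 1.85 without wild-type replicate 1. Arrays numbered 2 were dimmer with this probe set in both genotypes, which 1418240_at did not show.

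Gbp6 was also higher with both of its probe sets. Its probe set 1438676_at had 3734.6 and 3284 on the knockout arrays against 1483.9 and 1174.2 on the wild-type arrays (1.32 and 1.47, mean 1.40, SE 0.34). The probe set 1447927_at had 7070.5 and 4113.9 against 3759.2 and 2013.7 (0.91 and 1.03, mean 0.97, SE 0.50), again with the arrays numbered 2 dimmer in both genotypes. This mean ranged from 0.52 without wild-type replicate 2 to 1.41 without wild-type replicate 1.

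Gbp3 was the member whose groups overlapped. It had 2536.4 and 781.2 on the knockout arrays and 1210.5 and 275.1 on the wild-type arrays, so that knockout array 2 lay below wild-type array 1. Within numbers the knockout array was higher by 1.06 and by 1.46 (mean 1.26, SE 0.92), while leaving out wild-type replicate 2 gave 0.22 and leaving out wild-type replicate 1 gave 2.30. With 3 arrays left, genotype and array number are no longer balanced.

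Gbp8 and Gbp7 had smaller gaps. Gbp8 had 6289.9 and 4766.1 on the knockout arrays against 3115.9 and 3051.2 on the wild-type arrays, and was higher by 1.01 and 0.64 (mean 0.83, SE 0.34). Gbp7, which in mice is known to act with the NADPH oxidase against bacteria, had 6980.8 and 6435.4 against 5436 and 3818.7 with the probe set 1434380_at, or 0.36 and 0.75 (mean 0.56, SE 0.36). The probe set 1425156_at had 3250.5 and 3358.1 against 2425.5 and 1880.8, or 0.42 and 0.83 (mean 0.63, SE 0.34). Gbp7 thus showed the smallest difference of the 10 genes, and its probe sets lay within 0.07 of each other. The mean of Gbp7 ranged from 0.30 without wild-type replicate 2 to 0.81 without wild-type replicate 1.

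**Figure D3:**
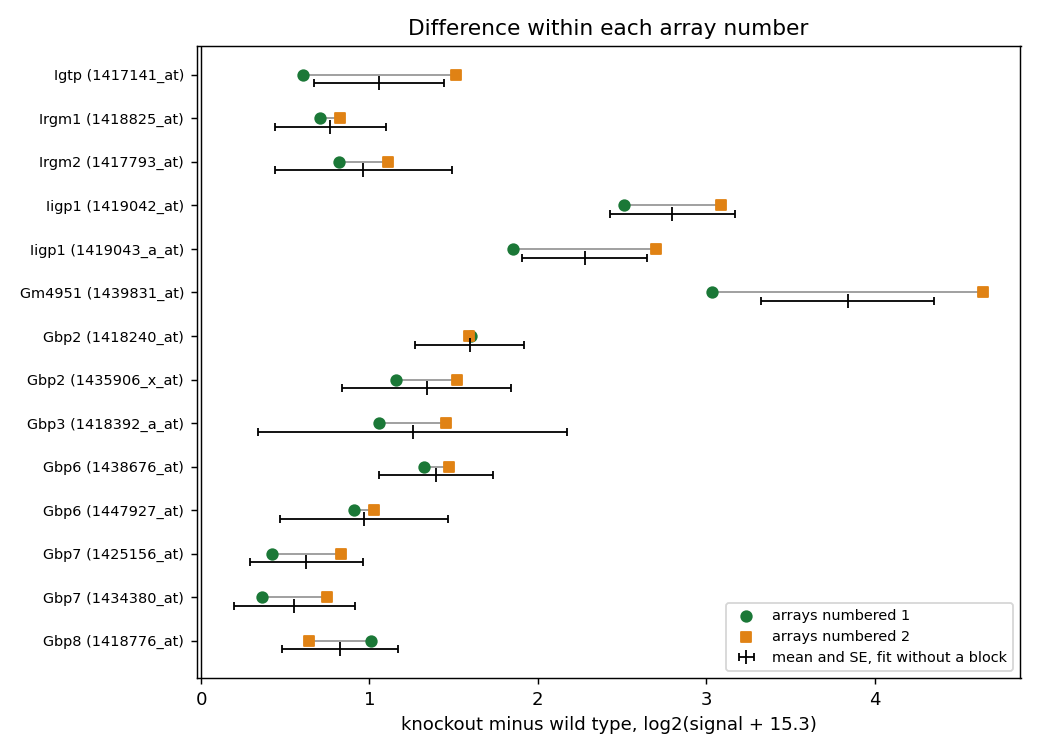
Difference, knockout minus wild type on the log2(signal + 15.3) scale, of each probe set within arrays numbered 1 (green circles) and numbered 2 (orange squares), with the mean and the SE of the fit without a block in black. All 28 within-number differences lie right of 0, from 0.36 (Gbp7) to 4.64 (Gm4951). The members were picked on this contrast, and 25.3% of all kept probe sets were higher in knockout cells within both numbers.

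As a group, all 14 probe sets passed the filter on low signals, 13 of them with a wild-type mean above the filter level, and all 14 were higher in knockout cells within both numbers. Of the 22518 probe sets that passed the filter, 25.3% were higher in knockout cells within both numbers and 30.1% lower. Both knockout arrays lay above both wild-type arrays in 13 of the 14, where the share over all kept probe sets was 7.62% (9.54% in the lower direction), and at least 2-fold above in 5 of the 14, where it was 0.164%. These 5 read Iigp1 (both probe sets), Gm4951, Gbp2 (1418240_at only) and Gbp6 (1438676_at only). As the members were picked on this contrast, nothing is read from the counts. The limma fit over all kept probe sets, with Benjamini-Hochberg adjustment, called 0.0% of them at an adjusted p under 0.05 (0 of 22518, with 145 at an unadjusted p under 0.05 and a smallest adjusted p of 0.888), members included. With the array number as a block limma called 6 of them (0.0266%). The B cell and myeloid marker sums above were also higher in knockout cells within both numbers, and their part in these counts was not tested.

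By family, the median over the IRG probe sets was 1.67 and over the GBP probe sets 1.11. With 1 probe set a gene, the kept one of highest mean, the medians were 1.06 and 0.97, and over all 10 genes 1.01, against -0.02 over all kept probe sets. Without knockout replicate 1 the median over the 10 genes was 0.66. In 12 of 14 probe sets the difference was larger on the arrays numbered 2, with medians of 1.46 on those arrays and 1.03 on the arrays numbered 1. Gbp8 and 1 probe set of Gbp2 were the other 2. Over all kept probe sets the medians were -0.03 on arrays numbered 2 and -0.004 on arrays numbered 1. The share of all kept probe sets with a larger difference on arrays numbered 2 was not counted. The B cell and myeloid marker medians given above were also larger on arrays numbered 2. This contrast between the numbers was not tested, since each number holds 1 array a genotype.

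**Figure D4:**
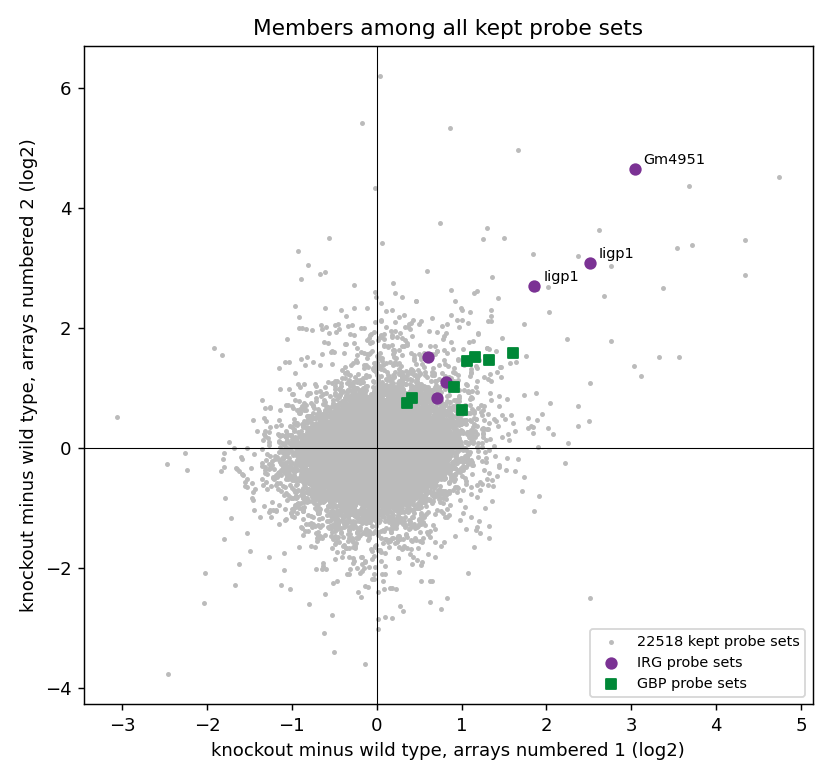
Knockout minus wild type on the log2(signal + 15.3) scale, on arrays numbered 1 (horizontal) and numbered 2 (vertical), for all 22518 kept probe sets (grey), IRG probe sets (purple circles) and GBP probe sets (green squares). Every member, picked on this contrast, lies right of and above 0, as do 25.3% of all kept probe sets. Of the members, Gm4951 and Iigp1 lie furthest out.

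The difference between array numbers was not used to choose the members and was tested with genotype as a term. Limma called 4 of the 14 probe sets at a Benjamini-Hochberg adjusted p under 0.05, all dimmer on arrays numbered 2, where it called 34.6% of all kept probe sets in either direction and 15.1% as dimmer. Gbp3 fell furthest, by 1.88 on the log2 scale (SE 0.21, limma adjusted p = 0.00468), with 2 of 2 genotypes showing the direction. Irgm2 fell by 0.91 (limma adjusted p = 0.0214), the Gbp6 probe set 1447927_at by 0.84 (limma adjusted p = 0.0239) and the Gbp2 probe set 1435906_x_at by 0.83 (limma adjusted p = 0.0291), each dimmer on array 2 in both genotypes. The other probe sets of the same genes, at 0.14 for Gbp2 and -0.26 for Gbp6, did not pass (limma adjusted p = 0.576 and 0.321). These 4 calls were lost when no filter was applied (limma adjusted p for Gbp3 0.104) and without the genotype term (0.056), and over all settings run the adjusted p of Gbp3 ranged from 9.49e-09 to 0.224. What the number stands for, and its part in the levels of these probe sets, was not tested.

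**Figure D5:**
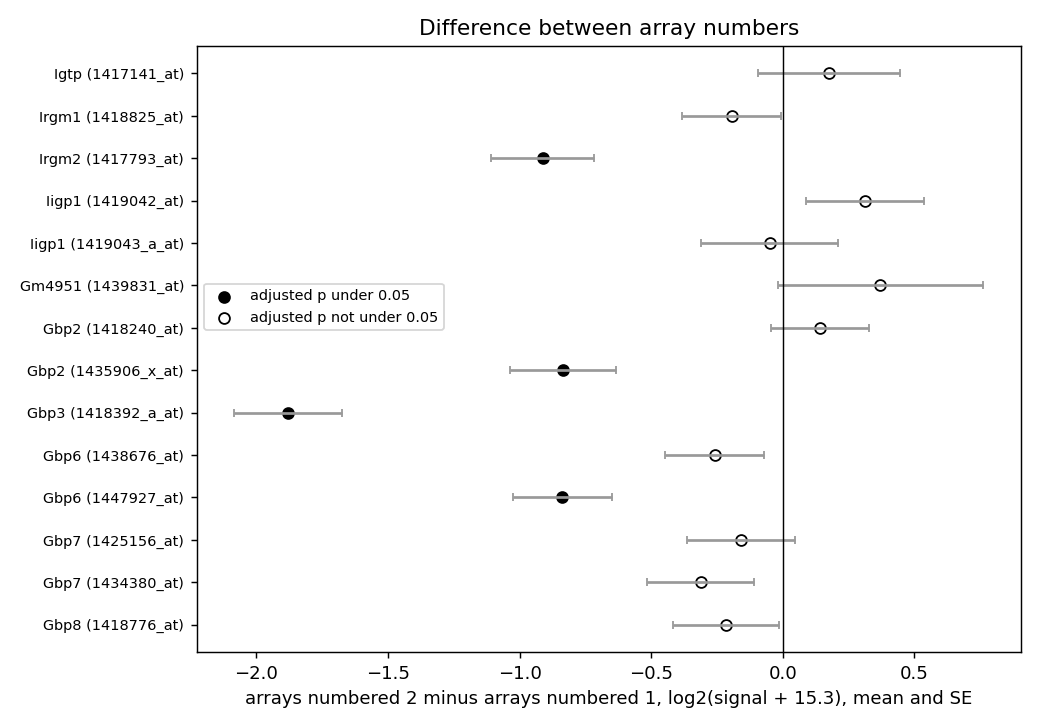
Arrays numbered 2 minus arrays numbered 1, on the log2(signal + 15.3) scale with SE from the limma fit with genotype as a term, for each member probe set. Filled circles, all left of 0, passed an adjusted p of 0.05: Gbp3, Irgm2 and 1 of the 2 probe sets each of Gbp2 and Gbp6.

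Other genes of these families were few on the array under a symbol of their own. Of 22 listed, 5 were measured and 4 passed the filter, with 0 of 4 called by limma and 3 of 4 higher within both numbers (25.3% over all kept probe sets). Ifi47 (Irgd), another effector IRG, had 15592.4 and 20721.3 on the knockout arrays and 11874.2 and 12759.1 on the wild-type arrays, or 0.39 and 0.70. Gm12185 was at 0.71 and 0.35 and Gbp2b at 0.91 and 0.15, with Gm12185 reaching at most 300.4 on any array and Gbp2b at most 110.6.

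Upstream of these GTPases, the interferon ligands failed the filter. Of 9 listed, 5 were measured and 0 passed the filter, so none was tested. Ifng, the gene of interferon gamma, had signals of 83.2 and 48.6 on the knockout arrays and 16.8 and 4.9 on the wild-type arrays, or 1.62 and 1.66 within numbers. Both knockout arrays were above both wild-type arrays, at levels that the table cannot tell from background. The type I genes Ifnb1, Ifna1, Ifna2 and Ifna4 did not exceed a signal of 34.7 on any array.

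The receptor and kinase list had 7 of 7 genes kept and 0 called by limma, with a median of 0.17. Ifngr1, the ligand-binding chain of the interferon gamma receptor, had 2498.1 and 2381.6 on the knockout arrays against 1882.5 and 1540.9 on the wild-type arrays (0.41 and 0.62). Its partner chain Ifngr2 was at -0.06 and 0.07, and its signal followed the array number instead, with 209.4 and 618.8 on the knockout arrays and 218.1 and 590.7 on the wild-type arrays. The type I receptor chains Ifnar2 and Ifnar1 were at 0.34 and 0.38, and at 0.22 and 0.13. The kinases Jak1 and Jak2, which relay the interferon gamma signal, were at -0.22 and 0.003, and at 0.13 and 0.36.

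Of 8 kept transcription factors of the pathway, 7 were higher within both numbers (25.3% over all kept probe sets) and 0 lower, 4 had both knockout arrays above both wild-type arrays (7.62% over all kept probe sets), and limma called 0 (median 0.37). The widest gap was that of Irf8, a factor of myeloid and B cells, with 382.7 and 598.3 on the knockout arrays against 173.5 and 129.6 on the wild-type arrays (1.08 and 2.08). Stat2 was at 0.61 and 0.81. Irf1, a factor that interferon gamma induces and that binds ISRE elements, had 10035.8 and 10080.5 against 8051.1 and 5903.4 (0.32 and 0.77). Among 9 inhibitors of the pathway 3 were higher and 2 lower within both numbers (25.3% and 30.1% over all kept probe sets) and 0 were called. Socs3 was at 0.79 and 1.47, Usp18, which dampens type I signalling, at 0.93 and 0.61, and Socs1 at 0.28 and 0.57.

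Of 23 kept genes from a list of other interferon-induced genes, 19 were higher and 1 lower within both numbers (25.3% and 30.1% over all kept probe sets). Their median was 0.52, with 0 called by limma. Mx1, an antiviral GTPase of the dynamin type, was at 0.92 and 1.25, and Oasl2 at 0.91 and 1.12. Zbp1, a nucleic acid sensor, was at 1.08 and 0.93 (SE 1.25). Its groups overlapped and its signal followed the array number, with 533.9 and 3266 on the knockout arrays and 244.7 and 1705 on the wild-type arrays. The autophagy conjugation genes, whose products are known to guide IRG and GBP proteins to vacuoles, had a median of 0.04, with 0 called. Within both numbers 3 of 11 were higher and 3 lower (25.3% and 30.1% over all kept probe sets). The widest gaps in that list were those of Gabarapl1 (0.23 and 0.92), Atg5 (-0.53 and -0.13) and Atg16l1 (0.34 and 0.23).

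The members sit in 5 places of the genome by the RefSeq gene order of GRCm38.p6: Gbp7, Gbp3 and Gbp2 on chromosome 3, Gbp8 and Gbp6 on chromosome 5, Irgm1 and, elsewhere on the same chromosome, Igtp with Irgm2 on chromosome 11, and Gm4951 with Iigp1 on chromosome 18. The nearest 3 kept genes of other families on each side of each place, 30 in all, ranged from -0.53 (Thoc2l) to 0.30 (Mrpl22), with a median of -0.04. Of these 30, 6 were higher and 10 lower within both numbers (25.3% and 30.1% over all kept probe sets). Gtf2b, a general transcription factor gene beside the Gbp genes of chromosome 3, was at -0.27 and -0.05, and Dctn4, beside Iigp1, at -0.25 and -0.02. Their separation from the members was not tested.

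The profile of the 10 members over the 4 arrays, each gene centred on its own mean and averaged, was 0.81 and 0.57 on the knockout arrays and -0.34 and -1.04 on the wild-type arrays. The 5 other kept genes closest to it by root mean square distance were Csf1 (0.09), H2-Q5 (0.13), Ms4a4c (0.16), Nkg7 (0.17) and Rnf225 (0.17). Csf1, a growth factor of macrophages, was at 1.17 and 1.37 within numbers, and Nkg7, a granule protein of cytotoxic cells, at 0.96 and 1.49. H2-Q5 and Ms4a4c belong to families of close copies, so their signals are uncertain. With 4 points, the distance is given as a description.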

How the data were processed

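The authors deposited linear intensities, 1 per probe set and array. The submitters' processing notes name MAS5, with version and settings not given in any source at hand. All 4 arrays share a trimmed mean of 500.003 (2% cut at each end), per the values. Total RNA was extracted with Trizol, per the labels' protocols. The table held 45101 probe sets, 64 of them controls left out of tests. Probe sets were named from the platform annotation of 2016, which gives 34945 probe sets 1 symbol and 932 several; 34754 were updated by Entrez identifier through RefSeq (GRCm38.p6). 1 probe set shared between a member and another gene was not used.

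The fits used log2(signal + 15.3), with 15.3 taken as the lower quartile (25%) of the table. Probe sets whose mean lay above the median mean, 22518 in number, were kept. Limma 3.58.1 in R 4.3.3 (lmFit, eBayes, two-sided, Benjamini-Hochberg over kept probe sets, threshold 0.05) was fitted to all 4 arrays, for genotype without a block and for array number with genotype as a term. The array numbers are given in the labels without a statement of shared animals or days; across probe sets, which are not independent of each other, same-numbered arrays deviated together from their genotype's mean (r = 0.80).

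The members and gene lists were chosen with earlier results of these data known. Named genes are all members, the interferon ligands and receptors, at most 3 kept genes of the largest difference per pathway list, and the 5 genes nearest to the members' profile. Jak1, Jak2, Gtf2b, Dctn4, Thoc2l, Mrpl22, Gzma, Cd8a, Cd8b1, Klrd1, Ncr1, Klrk1, Ccr7, Il7r, Lef1, Cd44 and Cd4, outside this rule, were chosen after their values were seen. Alternatives covered the added constant, the filter, scaling, priors, the block, each array left out and the choice of probe set.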

Additional observations from a re-analysis of the deposited data

How the results depend on the processing

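Of 22 other settings, some gave no difference per gene. In the rest, all 139 recomputed differences of the 10 genes stayed above 0. Of these, 8 moved by more than the spread between replicates, all of Igtp, Iigp1 and Gm4951. The filter settings and the replicate block do not change a gene's difference, and the members were picked on this contrast. The 139 values are therefore a description and no test of robustness. The median over the members was 1.01 and ranged from 0.96 to 1.28 under other settings, both ends from dropping both arrays of 1 number. It was 1.16 with each kept probe set on its own (added after seeing the data), and ranged from 0.66 to 1.45 with 1 array left out. The count of members higher within both numbers was 10 of 10, and 9 of 9 with the filter at the 75th percentile, which removed Gm4951; with 1 array left out only 1 same-numbered pair remains, so it has no value there. Over all kept probe sets, the limma count for genotype was 0 and stayed 0 with each array left out; with the array number as a replicate block it was 6, and with a replicate block and a trended prior 260. The replicate block changes only the SE of a member's difference. For Gbp3, the member with the largest SE, it was 0.92 without the block and 0.21 with it. The count for array number was 7791, and 0 with no filter; with 1 array left out and no genotype term it was 819 when wild-type replicate 1 was dropped, 1952 when knockout replicate 1 was, and at most 5992. The 4 member calls for array number lost the threshold with no filter, without the genotype term, and in 3 of 4 leave-outs. Igtp turned to -0.75 with quantile normalization (limma adjusted p = 0.0441), to -0.16 with median centring, and to between -0.58 and -0.13 in 2 leave-outs (knockout replicate 2, wild-type replicate 1); the cause was not tested. Signal over background is unknown, which limits Gm4951 and Ifng most.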
